A study of Homo sapiens with 6 samples.

Results

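The region upstream of TBXT, from the TBXT promoter to the near end of PRR18, held 322 of the 1201 putative cis-regulatory elements (pCREs) listed for the 3 lung cancer cell lines of the series, or 26.8%. These members were chosen by position alone. A pCRE was included when its midpoint lay from chr6:166169211 to 166305299 of hg38, an interval of 136089 bp that begins next to the viewpoint and takes up 6.80% of the sequence within 1 Mb on either side of it. The contacts were measured by circularized chromosome conformation capture with sequencing (4C-seq), which reads out the restriction fragments ligated to a chosen site, the viewpoint. H460 cells, a lung carcinoma line from a pleural effusion, express TBXT, whereas H358 cells, labelled bronchioalveolar carcinoma of the bronchiole, and A549 cells, a lung carcinoma line, do not. All cells were untreated established lines, and A549 was grown in DMEM but H460 and H358 in RPMI 1640, so that line and medium cannot be told apart. For each line 2 biological replicate libraries were made (6 in all), and the authors deposited a single list per line of the fragments called in both replicates. Lists are called here by the line in their labels, but the study's text gives the list totals of H358 and A549 the other way round. Which assignment is right cannot be told from the lists, and if the labels were exchanged, H358 and A549 would change places in every statement below, whereas the values of H460 and of the pCREs in all lines, gained, lost or shared would stay. The lists give positions without a read count or a score, so the depth is unknown, no replicate spread can be given for any value, and no difference between lines was tested. The 95% Wilson intervals printed below cover counting error alone and are too narrow, since the authors smoothed neighboring fragments together.

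TBXT, also known as Brachyury, is a T-box transcription factor that directs mesoderm and notochord formation in the embryo and is linked to epithelial-to-mesenchymal transition in tumors. A promoter can be contacted by distal enhancers and silencers when chromatin folds, and 4C-seq is used to list such contacts as candidates, although a contact does not show that a sequence regulates the gene. Contacts near a viewpoint are frequent in any cell because the sequences are tethered to each other. Long non-coding RNAs (lncRNAs) are transcripts without a coding frame, and their genes can lie between a gene and its enhancers. TBXT lies on the minus strand, and its upstream side therefore runs towards higher coordinates, to PRR18, a gene for a proline-rich protein.

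The viewpoint is fixed by the inverse PCR primers, which are shown because every distance was measured from the NlaIII site (CATG, in capitals) at which the forward primer ends, at position 166169210. This site lies 510 bp upstream of the outermost annotated TBXT start. The forward primer matched chr6:166169196-166169213 on the plus strand and the reverse primer chr6:166168612-166168632 on the minus strand.
Forward primer: ggctttcccgcggaCATG
Reverse primer: ttatttccgtccatttccctc

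The pCREs themselves were NlaIII sites with the adjoining parts of their fragments. Each of the 644 pCRE boundaries fell no more than 3 bp from an NlaIII fragment's midpoint in hg38. Of the pCREs, 320 held 1 NlaIII site, 2 held 2, and 306 touched the next. The sequences below (hg38, plus strand, NlaIII site in capitals) are the widest pCREs of at most 300 bp in the longest H460-only stretch and in the longest stretch listed in H358 and A549 but not in H460. The last pair was picked after the values had been seen, namely the pCRE at the start of the lncRNA gene ENSG00000233365 and the short pCRE that parts the nearest H460 regions.
H460 only, chr6:166175849-166176143: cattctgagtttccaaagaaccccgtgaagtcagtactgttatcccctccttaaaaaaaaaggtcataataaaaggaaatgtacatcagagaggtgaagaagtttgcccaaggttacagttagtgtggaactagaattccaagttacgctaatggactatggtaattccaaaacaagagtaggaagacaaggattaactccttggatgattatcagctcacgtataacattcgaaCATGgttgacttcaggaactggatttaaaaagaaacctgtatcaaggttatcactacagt
H358 and A549, chr6:166233136-166233379: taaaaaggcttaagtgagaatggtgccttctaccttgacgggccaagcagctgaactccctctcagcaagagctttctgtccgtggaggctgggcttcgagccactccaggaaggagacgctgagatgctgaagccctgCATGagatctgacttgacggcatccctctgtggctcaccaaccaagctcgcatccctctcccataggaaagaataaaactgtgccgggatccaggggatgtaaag
ENSG00000233365 start, all lines, chr6:166236762-166237025: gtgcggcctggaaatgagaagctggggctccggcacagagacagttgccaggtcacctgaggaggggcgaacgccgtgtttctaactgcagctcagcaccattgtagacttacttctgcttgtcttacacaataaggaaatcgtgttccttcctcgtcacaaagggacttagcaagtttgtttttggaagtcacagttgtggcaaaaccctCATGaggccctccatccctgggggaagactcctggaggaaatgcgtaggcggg
H358 and A549, chr6:166179474-166179514: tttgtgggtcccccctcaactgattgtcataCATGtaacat
In the order printed, their G and C contents were 38.0%, 54.1%, 53.4% and 43.9%.

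Most pCREs of the interval were listed in every line. All 3 lists held 196 of the 322 pCREs (60.9%, 95% Wilson interval 55.4 to 66.0). The interval thus contained 49.0% (44.1 to 53.9) of the 400 pCREs common to all lines in the whole series. A further 42 pCREs (13.0%, 9.80 to 17.2) were listed in H460 and H358, 13 (4.04%, 2.37 to 6.78) in H460 and A549, and 7 (2.17%, 1.06 to 4.42) in H358 and A549. In a single list were 36 pCREs of A549 (11.2%, 8.19 to 15.1), 19 of H460 (5.90%, 3.81 to 9.03) and 9 of H358 (2.80%, 1.48 to 5.23). By the classes of the study, which take the TBXT-negative lines as the baseline, 251 pCREs were shared, 19 were gained in H460 and 52 were lost from H460. These were 42.4% of all shared pCREs of the series (38.5 to 46.4), 11.3% of all gained (7.36 to 17.0) and 11.8% of all lost ones (9.11 to 15.1).

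**Figure D1:**
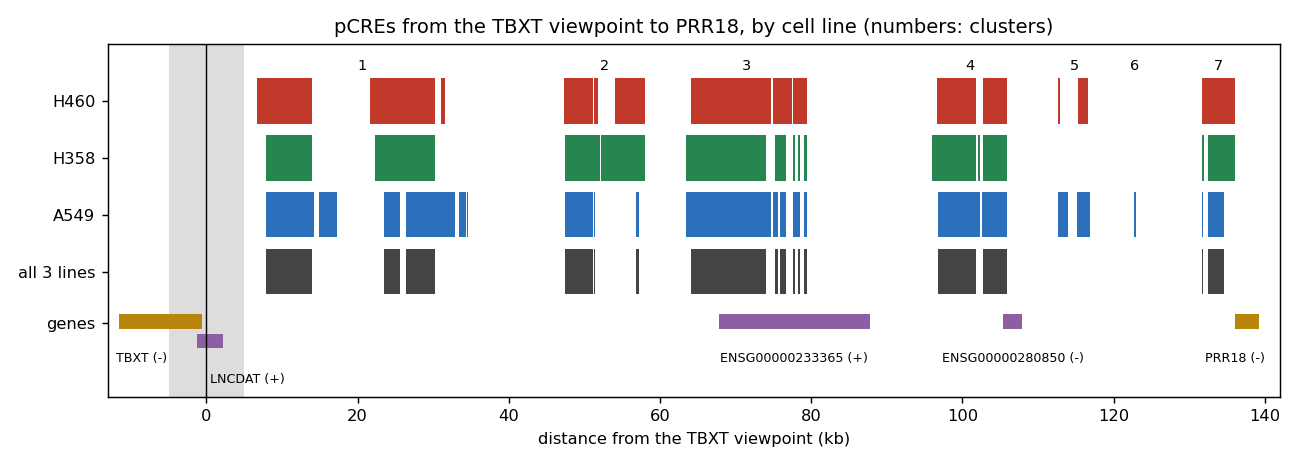
pCREs of each cell line (bars, to scale) against the distance from the TBXT viewpoint in kb, with the pCREs listed in all 3 lines and the genes below (lncRNA genes in purple, protein-coding genes in gold, strand in brackets). The shaded band marks the 5 kb on either side of the viewpoint from which fragments were removed, and the 7 numbered clusters are parted by gaps over 5 kb, with clusters 5 and 6 lacking any pCRE of H358.

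The numbers of pCREs per line were close to each other. H460 listed 270 of the 322 pCREs, H358 254 and A549 252, which were 35.5%, 34.8% and 33.2% of the respective lists of 760, 729 and 759 pCREs. They covered 39.5% of the interval in H460, 37.3% in H358 and 37.4% in A549. Measured against the 668 NlaIII sites of the interval that lay more than 5 kb from the viewpoint, 272 sites (40.7%, 37.1 to 44.5) were called in H460, 256 (38.3%, 34.7 to 42.1) in H358 and 253 (37.9%, 34.3 to 41.6) in A549. Over the 9840 sites within 1 Mb of the viewpoint the background was 7.76% in H460, 7.46% in H358 and 7.77% in A549. Sites called in any line made up 48.5% of the interval's sites against a background of 12.3%, and sites called in all 3 lines 29.5% against 4.09%. Distance from the viewpoint differs between the interval and the window. The authors' rule for a call included a fitted signal above a set part of its value at the viewpoint. The outermost pCRE of the series, found in H358 alone, was 633 kb away, although the window runs to 1 Mb. Sites beyond it, where nothing was called, lower the background shares. How much of the contrast with the interval is due to distance was not tested.

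A nearer comparison is the same distance range on the other side of the viewpoint, towards PDE10A. There the share of NlaIII sites called was 25.0% (21.8 to 28.5) in H460, 15.5% (12.9 to 18.5) in H358 and 17.8% (15.0 to 21.0) in A549. The mirrored interval held 189 pCREs, of which 69 (36.5%, 30.0 to 43.6) were listed in all lines. The share common to all lines was thus 24.4 percentage points higher upstream of TBXT (95% interval 15.4 to 32.7 when pCREs are taken as independent). H460-only pCREs numbered 56 of 189 (29.6%, 23.6 to 36.5) on the PDE10A side and 19 of 322 upstream of TBXT. No pCRE listed in H358 alone lay in the mirrored interval (0 of 189, which allows up to 3 counts or 1.59%, with a Wilson upper limit of 1.99%), and 9 of 322 (2.80%) lay upstream of TBXT. Among the 879 pCREs of the whole series outside the interval, 23.2% (20.5 to 26.1) were in all lines, 17.0% (14.6 to 19.6) in H460 only and 18.5% (16.1 to 21.2) in H358 only. Against these, single-line pCREs of H460 (5.90%) and of H358 were fewer upstream of TBXT. A549-only pCREs made up 11.2% (8.19 to 15.1) upstream of TBXT and 9.52% (6.11 to 14.6) on the PDE10A side. Outside the interval they made up 20.3% (17.7 to 23.0). With a single pooled list per line these differences between sides have no replicate check.

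H460 and H358 had the most pCREs in common. Their lists shared 238 of the 286 pCREs in either (83.2%, 78.5 to 87.1), against 209 of 313 (66.8%, 61.4 to 71.8) for H460 and A549 and 203 of 303 (67.0%, 61.5 to 72.0) for H358 and A549. The TBXT-expressing line was in this interval closer to a TBXT-negative line than the TBXT-negative lines were to each other. As a share of each list, the 238 common pCREs were 88.1% of those of H460 and 93.7% of those of H358. On the PDE10A side, the highest share in common was that of H358 and A549 (60.2%, 51.7 to 68.1), with 51.5% for H460 and H358 and 45.0% for H460 and A549. Outside the interval as a whole the shares were 37.7% (34.2 to 41.3) for H460 and H358, 39.2% (35.7 to 42.9) for H460 and A549 and 34.5% (31.2 to 38.0) for H358 and A549. There the TBXT-negative lines had the lowest share with each other, but the intervals of the pairs overlapped. Upstream of TBXT the lowest share was that of H460 and A549, nearly equal to that of H358 and A549. The order of the pairs upstream of TBXT was not the same in every part of the interval, as the clusters show.

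The pCREs fell into 7 clusters, parted by gaps of over 5 kb in which no line had a pCRE. With the 6638 bp next to the viewpoint, the gaps added up to 62503 bp, or 45.9% of the interval. NlaIII sites were present in every gap, 325 in all or 5.20 per kb, against 4.96 per kb in the clusters and 4.94 per kb in the window. Not every site could be called. The gap next to the viewpoint, with 35 sites, includes the 5 kb from which fragments were removed. The authors also left out short fragments and fragments with the same restriction enzyme site at both ends. The longest gap ran from 79.5 to 96.1 kb from the viewpoint and held 78 sites, and the densest, from 106 to 113 kb, held 58 sites in 6684 bp. All 3 lines had pCREs in 5 clusters. A549 was present in 7, H460 in 6 and H358 in 5.

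**Figure D2:**
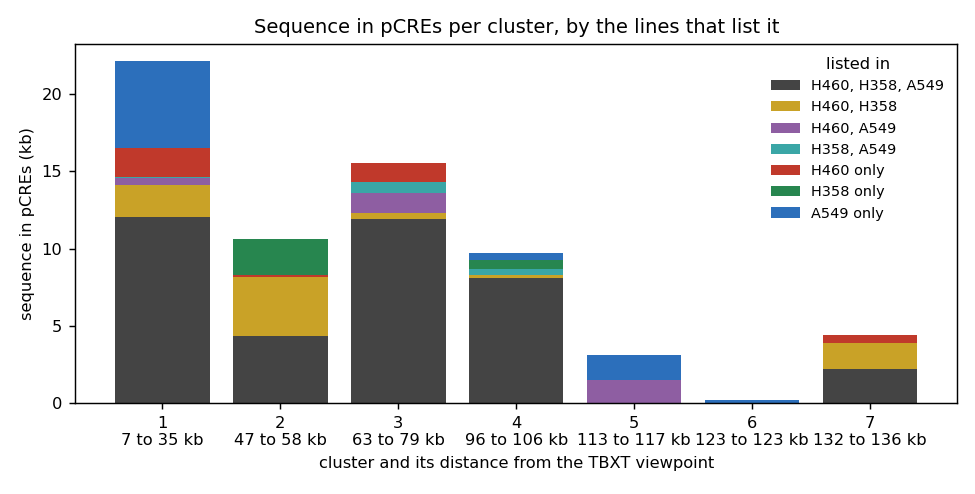
Sequence covered by pCREs in kb (bars stacked by the lines that list it) in each of the 7 clusters, which are placed in order of distance from the viewpoint. Cluster 1 held 12053 bp common to all lines and 5623 bp of A549 alone, and cluster 5 held sequence of A549 and H460 but none of H358.

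Cluster 1, from 6.64 to 34.6 kb, held 116 pCREs, of which H460 listed 91, H358 80 and A549 96, and 70 were common. Its inner edge was set by H460 alone. The longest H460-only stretch, 7 pCREs over 1261 bp at chr6:166175849-166177109, ran up to position 166177110, where H358 and A549 began together at 7.90 kb. It contains the pCRE nearest to the viewpoint, with its midpoint at 6.79 kb, whose sequence is printed above. H358 then had a single region of 37 pCREs to 14.0 kb and A549 a region of 39 pCREs to 14.3 kb, whereas H460 had 2 regions, of 20 and 23 pCREs. These H460 regions were parted by the 41-bp pCRE printed above, which was listed in H358 and A549 and was just above the joining distance of 40 bp. Farther out A549 alone had 9 pCREs over 2270 bp at chr6:166184179-166186448, the longest A549-only stretch of the interval. At the next block of the cluster H460 began at 21.7 kb, H358 at 22.3 kb and A549 at 23.5 kb. This block ended at 30.3 kb in H460 and H358 and at 32.9 kb in A549, where a single pCRE of 508 bp at chr6:166200261-166200768 was also listed in H460. Cluster 1 held 24 of the 36 A549-only pCREs and 11 of the 19 H460-only ones, but none of H358 alone.

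Cluster 2, from 47.3 to 58.1 kb, was the cluster with the lowest A549 share among those with pCREs of all lines. H358 listed 50 of its 51 pCREs, H460 45 and A549 22, and all 22 of A549 were common to the 3 lines. The pCREs of H358 covered 97.3% of the span, those of H460 76.6% and those of A549 40.4%. All lines held the run at chr6:166216616-166220296 (15 pCREs, 3681 bp). Farther out came the longest H358-only stretch, 2 pCREs over 1832 bp at chr6:166221406-166223237, which contains the widest pCRE of the interval (1123 bp). Next to it was the longest stretch in H460 and H358 only, 16 pCREs over 2784 bp at chr6:166223238-166226021. H460 and H358 had 86.3% of the pCREs here in common, H460 and A549 48.9%, and H358 and A549 22 of 50.

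Cluster 3, from 63.5 to 79.5 kb, held the longest contact region of each line when regions are cut at the interval's last pCRE. In full, the regions of H460 and H358 that continue past the interval at PRR18 were longer. H460 listed 64 of its 67 pCREs, H358 56 and A549 60, and 51 (76.1%) were common. A single run of 40 pCREs over 9901 bp, at chr6:166233380-166243280, was listed identically in all lines. The region around it measured 10479 bp for H460, 10595 bp for H358 and 11173 bp for A549. H358 and A549 began at 63.5 kb with 3 pCREs over 694 bp, the longest stretch listed in these lines and not in H460. H460 and A549 ended it at 74.6 kb and H358 at 74.1 kb. Beyond the run the contacts broke up, into 2 regions in H460, 4 in A549 and 5 in H358, with 5 common runs of 231 to 758 bp. Here H460 and H358 had the fewest pCREs in common (79.1%), against 85.1% for H460 and A549 and 87.1% for H358 and A549, the reverse of cluster 2.

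Cluster 4, from 96.1 to 106 kb, had the highest share of its sequence in common, 83.8%, with 42 of 53 pCREs in all lines. H460 listed 44, H358 50 and A549 48, and no pCRE was listed in H460 alone. The common sequence lay in a run of 20 pCREs over 5019 bp at chr6:166266044-166271062 and another of 22 over 3095 bp at chr6:166271986-166275080. H460 left the space between them empty, whereas A549 and H358 each filled part of it. The 3 lines differed by 781 bp or less at the outer edges of these runs.

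Clusters 5 and 6 were mainly A549. Cluster 5, from 113 to 117 kb, held 13 pCREs in A549, 6 of them also in H460, and 0 in H358. Its H460 pCREs included the longest stretch in H460 and A549 only, 4 pCREs over 1311 bp at chr6:166284532-166285842. Cluster 6 was a pair of A549 pCREs over 215 bp at 123 kb. None of these 15 pCREs was common to all lines, and no read count is given that would show how near H358 came to a call.

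Cluster 7, from 132 to 136 kb, was complete in H460, with 20 of 20 pCREs, and H358 listed 18 and A549 11. The 11 of A549 were all common, and the 6 pCREs over 1490 bp that lead up to PRR18 (chr6:166303823-166305312) were listed in H460 and H358 only. The contacts went on past the interval. The joined region of H460 continued to 166311527 and that of H358 to 166315181, across the PRR18 starts at 166308392 and 166308448. Both of these starts lay in a pCRE that A549 listed too. The last pCRE inside the interval, chr6:166305089-166305312, had its midpoint at 136.0 kb, and the first outside, chr6:166305313-166305921, at 136.4 kb. Both were listed in H460 and H358. On the near side the first pCRE inside lay at 6.79 kb and the next one outside at -8.23 kb, within TBXT and in A549 only.

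**Figure D3:**
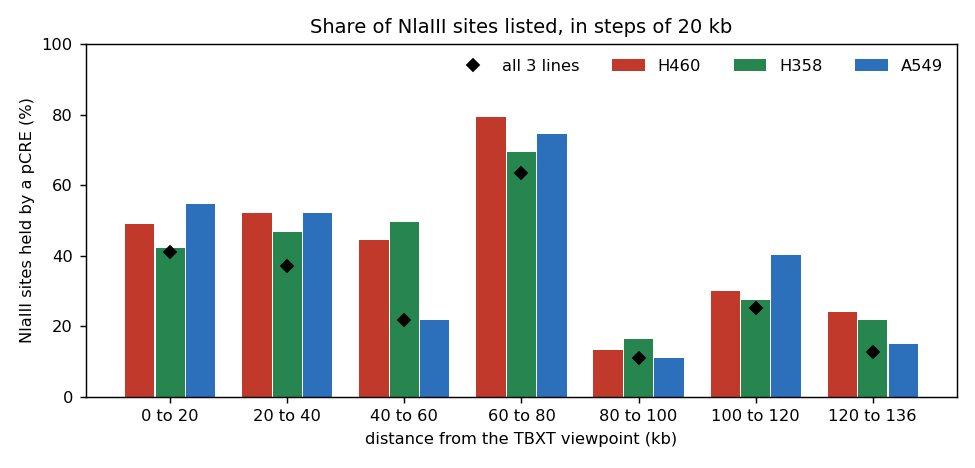
Share of NlaIII sites held by a pCRE in percent, in steps of 20 kb from the viewpoint, for each line (bars) and for all 3 lines at once (diamonds), with sites within 5 kb of the viewpoint left out. The shares were highest from 60 to 80 kb, at 79.3% in H460, 69.5% in H358 and 74.4% in A549, and not next to the viewpoint.

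The share of sites called did not fall steadily with distance. In the first 20 kb it was 48.9% in H460, 42.0% in H358 and 54.5% in A549. It was higher from 60 to 80 kb, at 79.3%, 69.5% and 74.4%, and dropped in the next 20 kb to 13.2%, 16.5% and 11.0%. From 100 to 120 kb it was 29.9%, 27.6% and 40.2%, so that the highest share there was that of A549. From 40 to 60 kb the lines stood farthest apart, with 44.6% in H460, 49.5% in H358 and 21.8% in A549. The median distance of a pCRE was 57.8 kb in H460 (95% binomial interval of the median 56.1 to 66.9), 57.6 kb in H358 (56.0 to 65.8) and 65.0 kb in A549 (50.7 to 68.2). These intervals overlapped, but they take neighboring pCREs as independent and are too narrow, and no difference between lines was tested. By class, the median was 65.0 kb for pCREs in all lines, 22.1 kb for H460-only, 33.1 kb for A549-only and 53.5 kb for H358-only pCREs.

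When pCREs of the interval no more than 40 bp apart were joined, A549 had 21 regions, whereas H460 and H358 had 15 each. The regions of A549 were smaller, with a median of 6 pCREs and 1305 bp, against 20 pCREs and 3625 bp in H460 and 16 pCREs and 3165 bp in H358. The region with the most pCREs held 47 in H460 (chr6:166190876-166199474, in cluster 1), 43 in H358 and 44 in A549. Of the 126 pCREs that were not in all lines, 96 sat in a joined region of the pooled lists that also held a common pCRE, 83 of them at its outer ends and 13 between common pCREs. All 19 H460-only, all 9 H358-only and all 42 pCREs of H460 and H358 were of this kind. The remaining 30 pCREs, in regions without a common one, were 24 of the 36 A549-only pCREs and 6 of the 13 of H460 and A549. At this joining distance, then, all gained pCREs lay in a pooled region that also held a pCRE of all lines, though not always next to it. The authors smoothed neighboring fragments together, and the same share was not counted outside the interval. No conclusion about gained pCREs is therefore drawn from this.

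The 196 pCREs common to all lines formed 17 runs that covered 38640 bp, or 28.4% of the interval and 58.8% of the sequence listed in any line. The runs were between 151 and 9901 bp wide, with a median of 2057 bp. Over 3000 bp were 6 runs, which held 143 of the 196 pCREs and 75.9% of the common sequence, and under 500 bp were 7. The longest 3 made up 48.7%. No run had the same limits in the joined regions of all 3 lines. The start coincided in every line for 2 runs (at 77.7 and 132 kb) and the end for 0. The run was the whole region of A549 in 7 cases, among them the runs of 3681 bp and 2057 bp in clusters 2 and 7, of H358 in 3 and of H460 in 2.

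**Figure D4:**
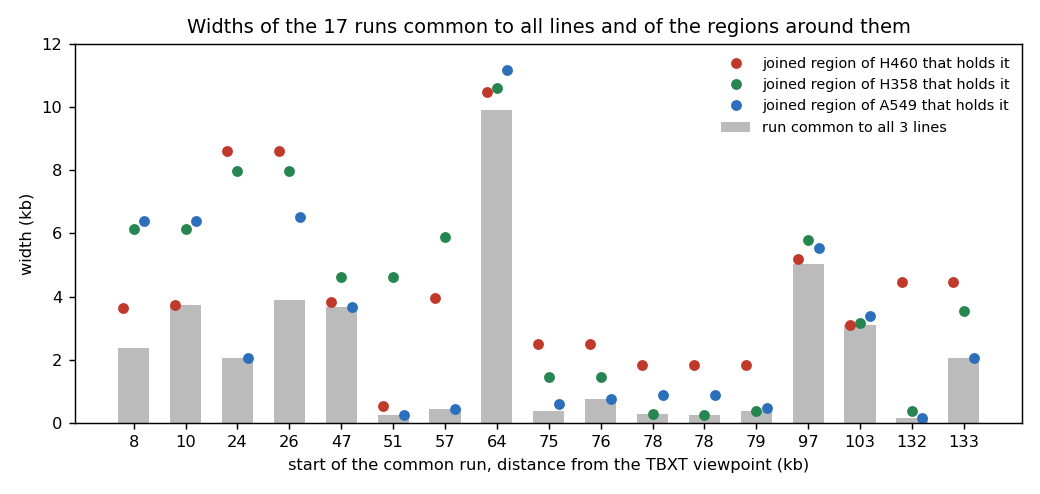
Widths in kb of the 17 runs common to all lines (bars) and of each line's joined region around them (points), ordered by distance from the viewpoint. Regions are cut at the interval's last pCRE, and neighboring runs can lie in the same region. At the longest run, of 9901 bp, the regions of all lines were little wider than the run, whereas the run of 423 bp at 56.8 kb lay in regions of 3941 bp in H460 and 5885 bp in H358 but was the whole region in A549.

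Single pCREs had a median width of 165 bp (14 to 1123 bp), against 204 bp for the pCREs outside the interval, and 16 were narrower than 40 bp. The median was 167 bp for pCREs in all lines, 156 bp in a pair of lines and 187 bp in a single line. The NlaIII regions of the interval that no line listed were 149 bp wide in the median, and all NlaIII regions of the window, listed or not, 161 bp. A width here is a distance between midpoints of NlaIII fragments and follows from the sequence. The median G and C content was 45.2% for the pCREs of the interval, 39.0% for the 19 H460-only pCREs and 46.3% for the 52 pCREs not in H460. It was 43.1% in the unlisted regions of the interval and 43.6% over all NlaIII regions of the window, listed ones included. Over all bases pooled, the contrast was smaller. The content was then 44.7% for the pCREs of the interval, 42.3% for H460-only pCREs and 46.0% for those not in H460. In the unlisted regions of the interval it was 42.7%.

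The interval contains or touches 3 lncRNA genes in GENCODE 44. LNCDAT, on the plus strand at chr6:166167920-166171376, overlaps the TBXT start in antisense and lies within 5 kb of the viewpoint, so that no pCRE could be listed there. ENSG00000233365, on the plus strand at chr6:166236969-166256947, has 5 annotated exons and runs from 67.8 to 87.7 kb, across the larger part of cluster 3. It held the midpoints of 44 pCREs, all of them in H460, with 33 in H358, 37 in A549 and 31 in all lines. For comparison, H460 listed 64 of the 67 pCREs of cluster 3 and 83.9% of those of the interval. The pCREs in the gene covered 55.9% of it in H460, 43.4% in H358 and 47.8% in A549. Its start at 166236969 lay inside a pCRE of all lines (printed above), and 5 pCREs, all common, lay from 1000 bp upstream to 100 bp downstream of it. The pCREs ended at 79.5 kb, 8243 bp before the end of the gene, and the gene's last 3 exons were in no pCRE. The first exon was covered whole in every line. In the exon of 1127 bp that follows, 1057 bp were covered in H460 and A549 but 479 bp in H358. The processed pseudogene GNG5P1, inside the gene, lay in 2 common pCREs.

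ENSG00000280850, on the minus strand at chr6:166274617-166277128, lies at the far edge of cluster 4. Its 3' end held 4 pCRE midpoints, 3 of them common and 1 in A549 only. None of its 3 annotated starts, from 166277077 to 166277128, was in a pCRE, and the nearest pCRE ended 1895 bp away. Over all lncRNA genes, 48 pCREs (14.9%) had their midpoint inside one, and lncRNA genes take up 18.1% of the interval. Of these 48, 34 were in all lines (70.8%, 56.8 to 81.8), against 162 of the 274 others (59.1%, 53.2 to 64.8), and the intervals overlapped. RNU6-153P, a small nuclear RNA gene copy at 40.2 kb, and the pseudogene ENSG00000280991 at 60.1 kb lay in gaps.

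Exact matches to 3 binding motifs were searched on both strands of hg38. The T-box half-site AGGTGTGA, to which TBXT binds, occurred 8 times in 8 pCREs (2.48% of 322). The share was 2.03% of the 344 unlisted NlaIII regions of the interval and 1.45% of the 9840 regions of the window. Of the 8 matches, 7 lay in pCREs of all lines and 1 in H460 and A549. Of these, 7 are printed on the plus strand with 10 bases on either side and the match in capitals, where TCACACCT marks a match on the minus strand.
chr6:166177927-166177934: agtggagggcTCACACCTgcatttgcag
chr6:166180171-166180178: aatatcattaTCACACCTaaaattaata
chr6:166180740-166180747: atcacatataTCACACCTttcctttgca
chr6:166200452-166200459: gagtggctgcTCACACCTgtgatcccag
chr6:166244519-166244526: ccgcagatagAGGTGTGAacctcagagg
chr6:166268403-166268410: agccagcaaaAGGTGTGAaggggcccgc
chr6:166274125-166274132: aaataatctcTCACACCTgtttgggact
The first 4 lay in cluster 1, and 3 of these between 8.72 and 11.5 kb from the viewpoint. The AP-1 site TGACTCA (its reverse complement TGAGTCA included) occurred 7 times in 7 pCREs (2.17%), 5 of them common and 2 in A549 only. The share was 2.62% of the unlisted regions of the interval and 3.45% of the regions of the window. A single AP-1 match overlapped a T-box match. The CTCF core motif, which marks many loop anchors, had 0 exact matches in the pCREs and 0 in the unlisted regions of the interval. In the window 7 of the 9840 regions (0.0711%) held it. With exact matches this rare, a count of 0 in 322 pCREs cannot show whether CTCF sites are lacking there. A match is a string of letters and not a bound site, and the binding of these factors was not analysed here.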

How the data were processed

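The 6 libraries (2 per line) come from 4C-seq with the TBXT promoter as viewpoint. The authors trimmed reads to 30 bp, aligned them with Bowtie 1.2.2 (per the submitters' processing notes) to an NlaIII-DpnII map of hg38, left out the 5 kb on either side of the viewpoint, took a running mean over 30 fragments and called fragments within 1 Mb in both replicates with peakC and a local coverage score. The deposited values are other than counts, namely start and end positions in bp, beside a column that reads TRUE throughout. The methods merge fragments up to 40 bp apart, but the lists hold them unmerged, and joining was done here. A call in both replicates hides near misses, and smoothing makes neighbors depend on each other.

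Here header lines were dropped (1 in the H358 and 1 in the A549 list), BED starts were counted from 1, and pCREs were matched between lines on identical limits. Sites, sequences and genes came from hg38 and GENCODE 44, on the build of the lists, which was checked against NlaIII fragment midpoints. Promoter windows ran from 1000 bp upstream to 100 bp downstream. Named regions followed a rule: the longest stretch of each pattern of lines, the longest region and the outermost pCREs of each line, gaps over 5 kb common to all lines, and every gene touching the interval. The interval, rules and motifs were chosen with earlier results of these data known. Clusters are named by those gaps. Shares carry 95% Wilson intervals, and the difference of shares between the sides of the viewpoint a 95% interval built from them. No test was run. Joining and matching were tested on simulated data. Python 3.11.15, scipy 1.17.1 and matplotlib 3.10.9 were used. The ChIP-seq and expression data were not analysed here, and a pair of sequences is not reported here.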

Additional observations from a re-analysis of the deposited data

How the results depend on the processing

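Of 73 alternative values for 22 results, 63 stayed within the 95% interval or within 1.5 times of the reported count, and none changed direction. The shares listed in all lines, in H460 only and not in H460 stayed within their intervals under every alternative tried (50% reciprocal overlap, membership by whole or any overlap, pCREs under 40 bp or standing alone left out, either end of the interval shortened by 20 kb, base pairs as the unit). Joining within 1000 bp left 9 H460, 7 H358 and 10 A549 regions, and 8 common runs with a median of 5158 bp, since it closes gaps by construction. Counting only lncRNA exons left 6 pCREs in place of 48, and a promoter of 2000 bp upstream to 500 bp downstream took in 12 in place of 5. Against all other pCREs within 1 Mb the share common to all lines was 37.7 percentage points higher, in place of 24.4. Leaving out each cluster in turn, an alternative chosen after seeing the data, kept H460 and H358 the pair with the most in common, with a lead over the next pair of 11.0 percentage points without cluster 2 and 22.6 without cluster 3, in place of 16.2. The 95% interval set for this lead had the width of that of the H460 and H358 share alone, and leaves out the error of the next pair. No paired analysis was possible because each line has a single list that pools both replicates, and for the same reason no replicate could be left out. The unknown depth limits every absence of a pCRE to the authors' threshold.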

Other observations

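The words ATACACA and TCATCA, motifs that the study built from regions outside this interval, were counted on both strands of the pCREs upstream of TBXT. ATACACA had 19 matches in 65738 bp, or 0.289 per kb, against 0.319 per kb over all NlaIII regions within 1 Mb and 0.230 per kb in the regions of the interval that no line listed. TCATCA had 46 matches, or 0.700 per kb, against 0.718 and 0.461 per kb. In the pCREs listed in a single line TCATCA had 17 matches in 14587 bp (1.17 per kb), and in those of all lines 23 in 38640 bp (0.595 per kb). ATACACA went the other way, with 2 matches in the pCREs of a single line (0.137 per kb) and 14 in those of all lines (0.362 per kb). Of TCATCA, H460-only pCREs held 3 matches in 3748 bp, and the pCREs not in H460 held 14 in 11941 bp. Both words are descriptions of the sequence, and no test was run on them.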
